A study of Homo sapiens with 18 samples.

Results

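The PI3K inhibitor alpelisib changed 6214 genes in DLD-1 colorectal cancer cells and 7654 in cells labelled LoVo, mostly in the same direction, and 153 genes were called as differing in the size or direction of that change. The comparison was the interaction between drug and line, that is the alpelisib effect in DLD-1 cells minus the alpelisib effect in the cells labelled LoVo. It was taken over 12 of the 18 libraries of the series and tested in 17322 of 61806 genes, those with a TPM (length-scaled transcript share of a library) of at least 1 in at least 3 of the 12 libraries. A negative interaction means that the gene rose less, or fell more, in DLD-1. All 12 libraries came from cells made to overexpress LIN28B, an RNA-binding protein that blocks maturation of let-7 microRNAs. The 4 groups were LoVo-labelled LIN28B cells untreated, LoVo-labelled LIN28B cells given 5 μM alpelisib, DLD-1 LIN28B cells untreated, and DLD-1 LIN28B cells given 5 μM alpelisib, with 3 libraries in each. The untreated cells carried LIN28B too, so neither drug effect was measured without it. Cells grew in DMEM with 10% fetal bovine serum, and the libraries were made from poly(A)-enriched RNA. The labels give neither the length of treatment nor the vehicle, and do not say whether the LIN28B cells were a clone or a pool, or whether replicates were separate cultures. The p-values therefore measure only the spread between these libraries, which may be technical.

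Alpelisib inhibits the alpha isoform of phosphatidylinositol 3-kinase (PI3K), encoded by PIK3CA. PI3K makes the membrane lipid that recruits AKT, and AKT and mTOR then drive protein and lipid synthesis, entry into the cell cycle and glucose uptake, while AKT keeps FOXO transcription factors out of the nucleus. PI3K inhibition relieves negative feedback on receptor tyrosine kinases. LoVo and DLD-1 are both established lines from colorectal adenocarcinomas with defective DNA mismatch repair.

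The libraries labelled LoVo LIN28B stood closer to DLD-1 than to the empty vector (EV) libraries of their own line. Of 30 genes at 20 TPM or more in all LoVo EV libraries and at 1 TPM or less in all DLD-1 EV libraries, 1 had a mean of 20 TPM or more in untreated LoVo-labelled LIN28B cells and 11 had a mean of 1 TPM or less. In DLD-1 LIN28B cells 29 of the 30 were at 1 TPM or less. Across genes, untreated LoVo-labelled LIN28B libraries had a Pearson's r of 0.9522 to 0.9636 with LoVo EV and of 0.9825 to 0.9842 with their DLD-1 counterparts. KRT20, an intestinal keratin, set the LIN28B cells of the lines apart, at 4.72 ± 0.347 TPM in the LoVo-labelled ones and 114 ± 3.46 in DLD-1 (mean ± SD, n = 3). These cells are called LoVo-labelled throughout, and no value of the interaction could be had without them. Of 10 colorectal epithelium markers 9 passed the filter, and EPCAM was at 456 TPM or more in all 12 libraries. Markers of fibroblasts, endothelium and leukocytes, 19 in all, summed to between 6.25 and 10.2 TPM in each library, and 2 of them were listed at 0 in all 12. Mitochondrially encoded transcripts held 10.6% to 15.8% of TPM in treated DLD-1 cells, 10.3% to 11.1% in untreated DLD-1 cells, 8.22% to 12.2% in treated LoVo-labelled cells and 7.24% to 10.3% in untreated ones. The part of these differences in the results was not tested beyond rescaling without those transcripts, which gave 202 interaction calls.

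Most of the response was shared. Alpelisib raised 1779 genes and lowered 4435 in DLD-1 (35.9% of genes tested called), and raised 2843 and lowered 4811 in LoVo-labelled cells (44.2%; limma, adjusted p under 0.05). The genes risen in both lines numbered 1309, which was 73.6% of those risen in DLD-1 and 46% of those risen in LoVo-labelled cells. The genes fallen in both numbered 3458, or 78% and 71.9% of the fallen genes of each line, and 24 of the 4791 genes called in both went in opposite directions. Over all genes tested the effects in the 2 lines had a Pearson's r of 0.7206, a description across genes that share libraries within each line but none between the lines. Among the 4767 genes called in both lines with the same sign, the change was larger in LoVo-labelled cells in 3078 (64.6%).

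The interaction was called for 153 genes (0.883%), of which 113 (0.652%) were negative and 40 (0.231%) positive. At an unadjusted p under 0.05 there were 1392 negative and 1030 positive genes. Among the 153, the larger change lay in LoVo-labelled cells for 134 (87.6%). Effects were also more spread there over all genes tested, with an SD of 0.598 against 0.506 in DLD-1. Of the 113 negative genes, 47 rose in LoVo-labelled cells and were not called in DLD-1, 41 rose in both, and 15 rose in LoVo-labelled cells and fell in DLD-1. Another 7 were called only in DLD-1, where they fell, and 3 fell in both. Of the 40 positive genes, 18 fell in LoVo-labelled cells and were not called in DLD-1, 16 fell in both, 3 rose in DLD-1 without a call in LoVo-labelled cells, 2 rose in DLD-1 and fell in LoVo-labelled cells, and 1, REG4, rose in both. The gap between the lines was wider with alpelisib than without it for 98 of the 153 (64.1%). The shares of all genes tested with a wider gap, or with the larger change in LoVo-labelled cells, were not taken. The counts of 98 and 134 therefore do not set the 153 apart from other genes. With median-of-ratios scaling in place of TPM as deposited, 248 genes were called, 46% of them positive against 26.1% of the 153. That scaling moved the median of all genes from -0.11 to 0.0087 in DLD-1 and from -0.0753 to 0.0135 in LoVo-labelled cells on the log2 scale, and the median interaction from -0.0292 to 0.00557. Leaving out 1 library gave 65 to 139 calls, except that 246 genes were called without LoVo-labelled alpelisib replicate 3, and all 153 genes kept the sign of their estimate each time. Genes named below were chosen by the size of a called estimate, among those whose 9 treated-minus-untreated differences did not overlap between the lines (1305 genes, 7.53%), or as members of lists.

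**Figure D1:**
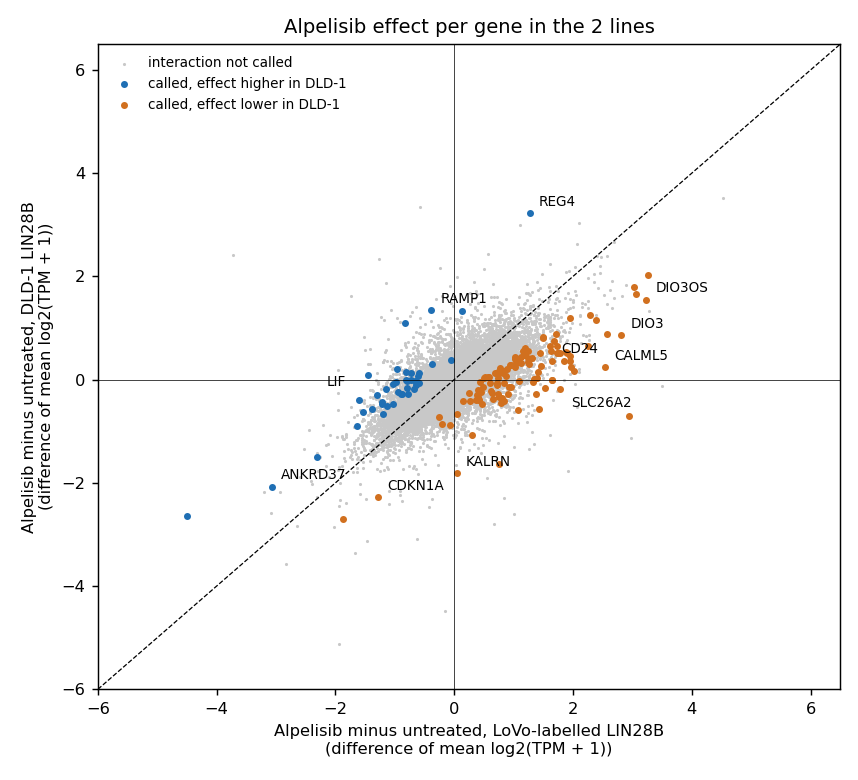
Each point is 1 of the 17322 genes tested, with its alpelisib effect in LoVo-labelled cells on the x axis and in DLD-1 cells on the y axis, both as differences of mean log2(TPM + 1) over 3 libraries a group. The dashed line marks equal effects, and the 113 negative genes (orange) lie below it, mostly to the right of 0, while the 40 positive genes (blue) lie above it.

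SLC26A2 and DIO3 had negative interactions of nearly the same size. SLC26A2 encodes a sulfate transporter of the plasma membrane that supplies sulfate for proteoglycan synthesis, and it lies on chromosome 5, positions 149960737 to 149993455 of GRCh38. Its TPM was 9.32, 10.4 and 10.0 in untreated LoVo-labelled libraries and 39.3, 39.1 and 32.0 with alpelisib. In DLD-1 it was 4.22, 4.18 and 3.77 untreated and 3.52, 3.45 and 3.45 with the drug. All treated LoVo-labelled libraries stood above every other library, whereas the treated DLD-1 libraries were the lowest of all. The rise in LoVo-labelled cells was 3.71-fold in mean TPM (log2 1.79, limma adjusted p = 4.67e-07), the change in DLD-1 was not called (-0.18, adjusted p = 0.227), and the interaction was -1.96 ± 0.15 (SE, adjusted p = 0.000161). Of the 11 SLC26 anion exchangers listed only 4 passed the filter. SLC26A6, an exchanger of chloride, bicarbonate and oxalate, had an interaction of 0.33 (adjusted p = 0.356). CFTR, the chloride channel that works with these exchangers in epithelia, rose in both lines, by 1.47 in DLD-1 and 1.17 in LoVo-labelled cells on the log2 scale, with an interaction of 0.30 that was not called (limma adjusted p = 0.180).

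DIO3 encodes the type 3 deiodinase, which inactivates thyroid hormone, and lies on chromosome 14, positions 101561351 to 101563452. It was at 4.14, 3.55 and 4.93 TPM in untreated LoVo-labelled libraries and at 39.2, 44.0 and 25.7 with alpelisib. In DLD-1 it went from 3.59, 2.60 and 3.30 to 6.14, 6.38 and 7.13. The gene rose in both lines with no overlap between treated and untreated libraries, 8.63-fold in LoVo-labelled cells and 2.07-fold in DLD-1, and the untreated levels of the lines were close. The interaction was -1.95 ± 0.26 (SE, limma adjusted p = 0.00649). DIO3OS, a long noncoding RNA on the opposite strand, starts 920 bases from the start of DIO3 and runs away from it. Its TPM rose from 6.99, 8.77 and 9.03 to 76.5, 92.0 and 88.8 in LoVo-labelled cells and from 9.90, 10.1 and 10.1 to 32.1, 29.6 and 32.3 in DLD-1. This neighbour therefore moved as DIO3 did, rising in both lines and further in LoVo-labelled cells, with an interaction of -1.68 ± 0.15 (SE, adjusted p = 0.000423). The other 2 deiodinase genes did not pass the filter on low values. The use of strand in counting was not given in the sources used here, but the annotated bodies of the pair do not overlap.

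REG4 was the gene with the largest positive interaction under the naming rule. It encodes a secreted lectin-like protein of intestinal secretory cells and lies on chromosome 1, positions 119794018 to 119811660. Its TPM was 50.6, 55.9 and 54.6 in untreated LoVo-labelled libraries and 117, 136 and 142 with alpelisib. In DLD-1 it was 2.95, 2.35 and 4.11 untreated and 40.2, 36.2 and 35.5 treated. REG4 thus started low in DLD-1 and rose 11.9-fold there, against 2.45-fold in LoVo-labelled cells, and the treated DLD-1 libraries stayed below the untreated LoVo-labelled ones. The interaction was 1.96 ± 0.19 (SE, limma adjusted p = 0.000812). It was the 1 gene of its 5-member family that passed the filter.

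LIF, a cytokine of the interleukin-6 family on chromosome 22, positions 30240447 to 30246851, fell in both lines. The LoVo-labelled libraries had 13.1, 15.8 and 19.2 TPM untreated and 4.46, 4.38 and 4.80 with alpelisib. The DLD-1 libraries had 23.6, 18.5 and 18.2 untreated and 15.7, 14.4 and 14.6 treated. Treated and untreated libraries did not overlap in either line, and the mean fell to 0.284 of its untreated value in LoVo-labelled cells and to 0.742 in DLD-1, with an interaction of 1.21 ± 0.19 (SE, limma adjusted p = 0.0152). In the list of this family and its STAT3 pathway 2 more of 18 genes tested were called. With LIF, itself chosen for its interaction, the list had 2 positive and 1 negative calls, against 0.231% and 0.652% of all genes. PIM3, a serine/threonine kinase, had a positive interaction of 0.64 (adjusted p = 0.0207), with an effect of -0.79 in LoVo-labelled cells, where it fell, and no call in DLD-1 (-0.16). SOCS1, an inhibitor of cytokine receptor signalling, had a negative one of -1.65 (adjusted p = 0.0241), from a rise of 1.38 in LoVo-labelled cells. The shared receptor IL6ST fell in both lines, with effects of -0.64 in DLD-1 and -0.44 in LoVo-labelled cells and an interaction of -0.20 that was not called.

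PCNA, the sliding clamp that holds DNA polymerases on the template, fell in LoVo-labelled cells only by call. Its TPM was 246, 254 and 217 in untreated LoVo-labelled libraries and 172, 154 and 149.8 with alpelisib. In DLD-1 it was 263, 279.6 and 235 untreated and 274, 283 and 295 treated. The LoVo-labelled groups did not overlap, whereas the DLD-1 groups did. The log2 effects were -0.59 (limma adjusted p = 0.000180) and 0.14 (adjusted p = 0.238), and the interaction was 0.72 ± 0.12 (SE, adjusted p = 0.0177). Leaving out untreated LoVo-labelled replicate 1 or DLD-1 alpelisib replicate 2 ended that call, with adjusted p = 0.0546 and 0.0524. The calls of SLC26A2, DIO3, DIO3OS, REG4 and LIF held without each of the 12 libraries in turn. Under 9 other settings of the processing, SLC26A2, DIO3OS and REG4 were called in all 9, DIO3 and LIF in 8 and PCNA in 7.

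**Figure D2:**
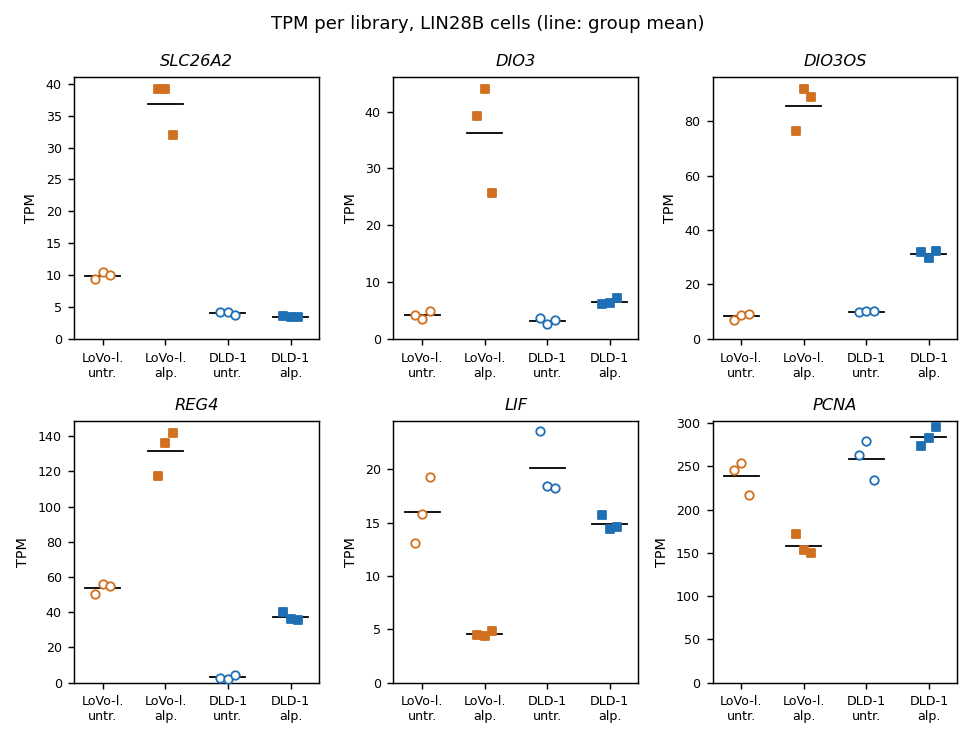
TPM of SLC26A2, DIO3, DIO3OS, REG4, LIF and PCNA in each of the 12 libraries, with untreated libraries as open circles, alpelisib libraries as filled squares and a line at the mean of each group of 3 (LoVo-l., LoVo-labelled). Treated LoVo-labelled libraries stand apart from untreated ones in every panel, and treated DLD-1 libraries stand well above untreated ones for DIO3OS and REG4.

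PCNA belongs to a list of 58 genes of DNA replication and the passage from G1 to S phase, all of which passed the filter. The whole list leaned to the positive side. The estimate was above 0 for 57 of the 58, against 46% of all genes tested, and the median was 0.44 against -0.0292. PCNA alone was called, and at an unadjusted p under 0.05 there were 33 positive members and 0 negative, against 5.95% and 8.04% of all genes. Alpelisib lowered 48 members and raised 0 in LoVo-labelled cells (27.8% and 16.4% of all genes fell and rose there), and lowered 18 and raised 1 in DLD-1 (25.6% and 10.3%). The median effect was -0.68 in LoVo-labelled cells and -0.20 in DLD-1. The DLD-1 count is less firm, since it dropped to 10 without untreated replicate 1 or alpelisib replicate 2, to 11 without alpelisib replicate 1, and under median-of-ratios scaling to 11 fallen with 6 risen. That scaling raised the positive interaction calls to 7. The 58 genes share their libraries and are not replicates of the condition.

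By role, the clamp and its loader were above 0 in 6 of 6 members with a median of 0.38. The helicase and licensing genes, which load and fire the MCM helicase at origins, were above 0 in 17 of 17 with a median of 0.60. MCM6, a subunit of that helicase, was at 46.0, 38.3 and 40.1 TPM in untreated LoVo-labelled libraries and 20.8, 16.4 and 14 with alpelisib. DLD-1 libraries were at 44.1, 43.9 and 39.3 untreated and 29.6, 29.6 and 35.2 treated. It fell in both lines, with log2 effects of -1.25 in LoVo-labelled cells and -0.42 in DLD-1, and its interaction of 0.82 was not called (limma adjusted p = 0.0614). MCM3 of the same ring had 69.0, 66.8 and 62.2 TPM without and 45.2, 44.8 and 35.0 with the drug in LoVo-labelled cells, and 73.3, 70.6 and 63.5 without and 63.0, 69.6 and 73.5 with it in DLD-1. It fell in LoVo-labelled cells, while the DLD-1 groups overlapped, and the interaction was 0.65 (adjusted p = 0.0656). HELLS, a chromatin remodeller, and RPA3, a subunit of the single-strand binding complex, had interactions of 0.70 (adjusted p = 0.0524) and 0.74 (adjusted p = 0.0914). SLBP, which binds the end of histone messages, had 0.42 (adjusted p = 0.0898). The polymerases and processing enzymes had 15 of 15 estimates above 0 (median 0.34), the nucleotide enzymes 7 of 7 (0.34) and the regulators 12 of 13 (0.50). The next 3 members were chosen after their values were seen. POLE, the catalytic subunit of polymerase epsilon, was the 1 member that rose in DLD-1, by 0.39. CCNE2, a cyclin of the G1 to S transition, was the 1 member with an estimate below 0, -0.32 (adjusted p = 0.541). RRM2, the small subunit of ribonucleotide reductase, fell in both lines, with log2 effects of -2.25 in LoVo-labelled cells and -1.51 in DLD-1.

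WDHD1, EME1 and FANCA are not on this list and were named for the size of their called estimates. WDHD1, an adaptor of the replication fork, fell in both lines, with effects of -1.39 in LoVo-labelled cells and -0.56 in DLD-1 (interaction 0.82, limma adjusted p = 0.0393). EME1, the partner of the MUS81 nuclease, fell in LoVo-labelled cells (effect -1.30) and had -0.29 with no call in DLD-1 (1.01, adjusted p = 0.0211). FANCA, of the Fanconi anaemia core complex, fell in LoVo-labelled cells (effect -0.81) and had 0.15 with no call in DLD-1 (0.96, adjusted p = 0.0325). The calls of WDHD1, EME1 and FANCA were lost without 11, 7 and 8 of the 12 libraries, each left out in turn.

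**Figure D3:**
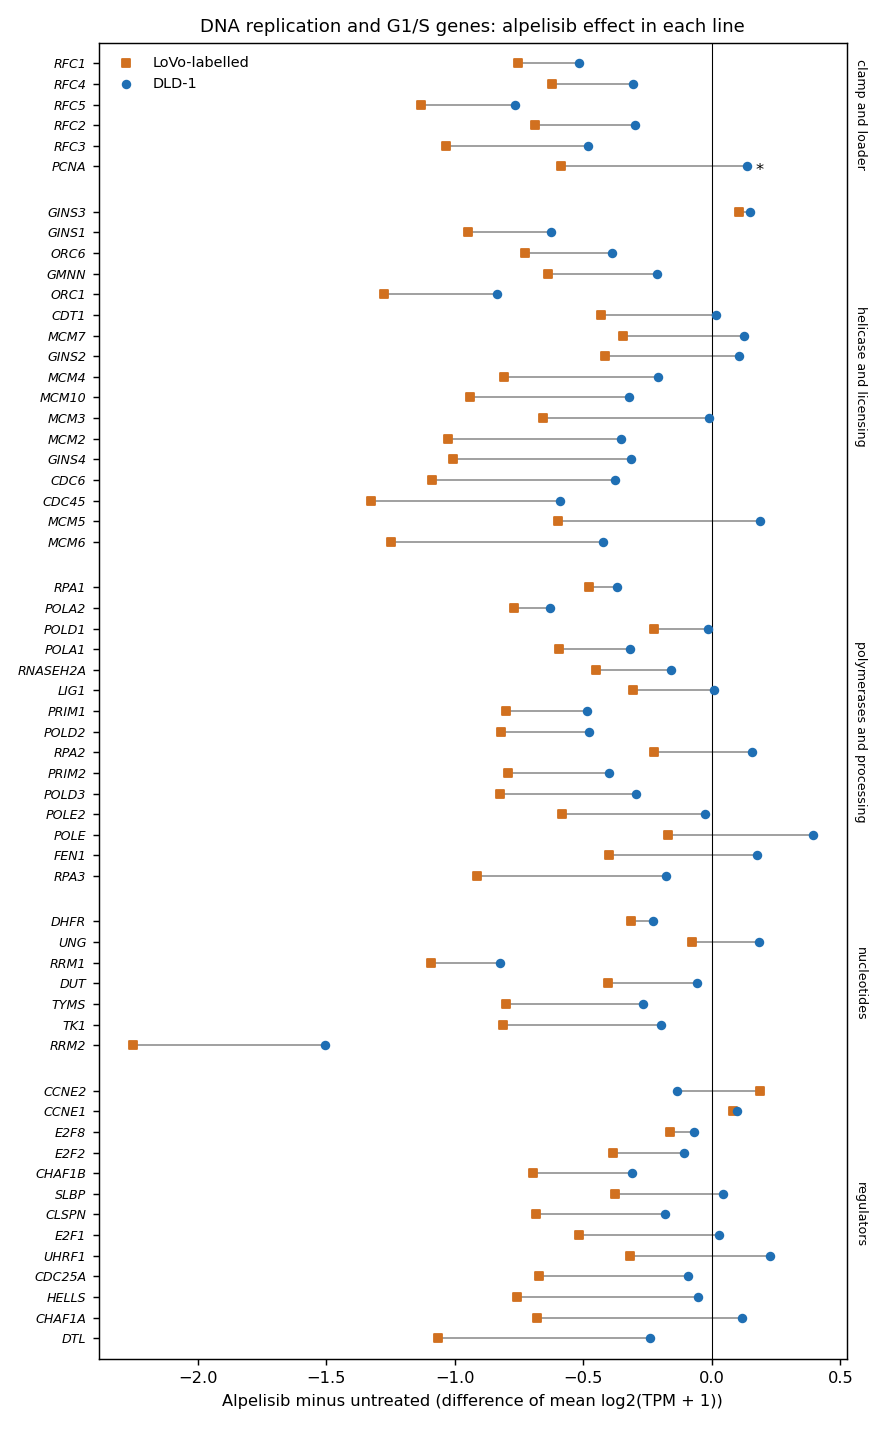
Alpelisib effect of the 58 DNA replication and G1/S genes, as the difference of mean log2(TPM + 1) between 3 treated and 3 untreated libraries, in LoVo-labelled cells (orange squares) and DLD-1 (blue circles), grouped by role. The blue point lies to the right of the orange one for 57 of the 58 genes, and the asterisk marks PCNA, the 1 member with a called interaction.

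The promoters of the replication genes are shown because E2F factors, which act on G1/S genes, have a known DNA motif. RefSeq promoters (GRCh38.p14) were searched over the 250 bases upstream of the start site on both strands for TTTCCCGC, TTTCGCGC, TTTGCCGC and TTTGGCGC, which can overlap each other. A match was found in 18 of the 49 list genes with a promoter in the table (36.7%). The share was 4.44% of 11314 genes tested and 2.79% of all 27305 promoters of this length, 2 of 38 mitosis genes (5.26%) and 0 of 5 keratins. A match is a string in the sequence and not evidence of binding. The list was made of replication and G1/S genes, so its share of matches follows from that choice and not from the drug effects. A link between the motif and the interaction was not tested. The following are the 250 bases upstream of 3 members described above, 5′ to 3′ on the strand of the gene, with the matches in capitals. PCNA is from chr20:5126623-5126872, MCM6 from chr2:135876444-135876693 and MCM3 from chr6:52284743-52284992, all on the minus strand.
PCNA: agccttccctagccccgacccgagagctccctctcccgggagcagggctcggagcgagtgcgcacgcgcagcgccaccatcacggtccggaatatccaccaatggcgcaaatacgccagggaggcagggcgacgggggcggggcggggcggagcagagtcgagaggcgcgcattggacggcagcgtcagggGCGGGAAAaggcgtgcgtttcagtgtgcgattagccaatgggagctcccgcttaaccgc
MCM6: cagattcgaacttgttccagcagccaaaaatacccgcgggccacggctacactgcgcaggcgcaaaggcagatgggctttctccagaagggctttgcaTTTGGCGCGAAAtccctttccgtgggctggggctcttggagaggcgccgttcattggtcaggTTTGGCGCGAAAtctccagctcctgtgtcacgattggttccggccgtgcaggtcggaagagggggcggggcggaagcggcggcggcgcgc
MCM3: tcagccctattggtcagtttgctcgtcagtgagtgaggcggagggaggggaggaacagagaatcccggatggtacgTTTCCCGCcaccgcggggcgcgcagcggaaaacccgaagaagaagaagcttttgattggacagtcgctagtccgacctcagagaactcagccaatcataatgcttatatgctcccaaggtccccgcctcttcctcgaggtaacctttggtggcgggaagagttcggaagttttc
The match nearest the start begins 59 bases upstream in PCNA, 86 in MCM6 and 174 in MCM3. MCM6 holds 4 matches in 2 blocks, each made of TTTGGCGC overlapping the reverse complement of TTTCGCGC.

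Mitotic genes fell in both lines. Of 44 members tested, 44 fell in LoVo-labelled cells and 41 in DLD-1, against 27.8% and 25.6% of all genes, with medians of -0.99 and -0.78. The interaction was called for 0 of them, with 13 positive and 0 negative at an unadjusted p under 0.05, against 5.95% and 8.04% of all genes. The estimate was above 0 for 43, against 46% of all genes, with a median of 0.27. UBE2C, the ubiquitin-conjugating enzyme of the anaphase-promoting complex, came nearest to a call, at 0.52 (limma adjusted p = 0.0505). CDK1, the mitotic kinase, went from 105, 106 and 99.8 to 54.5, 44.3 and 42.6 TPM in LoVo-labelled cells and from 120.2, 106 and 110.0 to 68.9, 81.0 and 76.9 in DLD-1. It fell in both lines with no overlap, and its interaction was 0.57 (adjusted p = 0.0809). KIF23, a motor of cytokinesis, AURKB, a kinase of the centromere, TOP2A, a topoisomerase, and MELK, a kinase of dividing cells, had interactions of 0.59, 0.42, 0.37 and 0.43, none called. CCND1, the D cyclin that activates CDK4 and CDK6, fell in both lines, with effects of -0.61 in LoVo-labelled cells and -0.45 in DLD-1 (interaction 0.16, adjusted p = 0.709). CDKN1B, the inhibitor p27, did too, with -0.32 and -0.43 (interaction -0.12, adjusted p = 0.787). CDKN1A, the inhibitor p21 and a p53 target, was the 1 called gene among 16 D cyclins and inhibitors, beside 0.883% of all genes called. Its TPM was 65.6, 63.0 and 66.8 in untreated LoVo-labelled libraries and 27.9, 28.2 and 22.9 with alpelisib, and in DLD-1 33.3, 35.2 and 37.4 untreated and 5.48, 7.62 and 6.46 treated. It fell further in DLD-1, to 0.185 of its untreated mean against 0.404, with an interaction of -1.0 ± 0.16 (SE, adjusted p = 0.0152). Ribosome biogenesis, another list tied to growth, had 0 of 30 members called (8 positive and 0 negative at an unadjusted p under 0.05, beside the same 5.95% and 8.04%), with 27 estimates above 0.

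Keratins, the intermediate filament proteins of epithelia, leaned the other way. Of 18 listed, 13 passed the filter, and 0 of the 13 had an estimate above 0, against 46% of all genes tested (median -0.68 against -0.0292). The interaction was called negative for 3 and positive for 0, against 0.652% and 0.231% of all genes. Of the 3, KRT4 reached 1 TPM in the treated LoVo-labelled libraries alone. It passed the filter through them, which favoured a negative estimate, so KRT4 is no support for the lean of the list. At an unadjusted p under 0.05, 9 were negative and 0 positive, against 8.04% and 5.95%. Alpelisib raised 10 and lowered KRT19 in LoVo-labelled cells, where 16.4% of all genes rose, and raised 4 and lowered KRT19 and KRT34 in DLD-1, where 10.3% rose. The DLD-1 count of 4 dropped to 2 without untreated replicate 3 or alpelisib replicate 2. KRT18, a keratin of simple epithelia, was at 1736, 1774 and 1669 TPM in untreated LoVo-labelled libraries and at 3437, 3941 and 3858 with alpelisib. Those of DLD-1 were at 2315, 2338 and 2241 untreated and 3089, 3129 and 3110.4 treated. It rose in both lines without overlap, 2.17-fold and 1.35-fold (interaction -0.68 ± 0.086, SE, limma adjusted p = 0.00568). Its partner KRT8 rose by 0.83 in LoVo-labelled cells and 0.38 in DLD-1, with an interaction of -0.45 (adjusted p = 0.0546). KRT80 rose by 0.61 in LoVo-labelled cells and had -0.22 with no call in DLD-1 (interaction -0.84, adjusted p = 0.0293). KRT4 went from 0.357, 0.278 and 0.271 to 2.96, 5.92 and 3.62 TPM in LoVo-labelled cells and was at 0 to 0.431 TPM in the 6 DLD-1 libraries (interaction -1.59, adjusted p = 0.0393). Leaving out each of 9 of the 12 libraries ended the call of KRT80, and 10 that of KRT4, with adjusted p of at most 0.083 and 0.094, so that the 3 calls became 1, KRT18, without any untreated library, LoVo-labelled alpelisib replicate 2, or DLD-1 alpelisib replicate 1 or 2. KRT15 and KRT34 had -0.92 and -1.27 with no call. KRT8 and KRT18 have many processed copies in the genome, so their TPM can depend on how shared reads were counted.

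Of 20 enterocyte genes tested 0 had a called interaction, a count that says little about the list where 0.883% of all genes were called. At an unadjusted p under 0.05 there were 1 positive and 3 negative, against 5.95% and 8.04% of all genes. Of 9 colorectal epithelium markers KRT18 alone had a called interaction. CD24, a surface glycoprotein of epithelial cells on chromosome 6, positions 106969831 to 106975627, had the smallest adjusted p of all genes, and it and FOXQ1 were chosen after their values were seen. CD24 was at 273, 279 and 279.6 TPM in untreated LoVo-labelled libraries and at 902, 886 and 817 with alpelisib. The DLD-1 libraries had 167, 157 and 152 untreated and 193, 209.8 and 213 treated. It rose 3.13-fold in LoVo-labelled cells and 1.29-fold in DLD-1 (interaction -1.28 ± 0.091, SE, limma adjusted p = 0.000126). FOXQ1, a forkhead transcription factor, rose 5.24-fold and 2.24-fold (interaction -1.22 ± 0.11, SE, adjusted p = 0.000452). FOXA1, a pioneer factor of endodermal epithelia, and SOX9, a factor of the intestinal crypt, rose in LoVo-labelled cells, by 0.77 and 0.50, and were not called in DLD-1, at 0.21 and 0.039. Their interactions were -0.56 (adjusted p = 0.0419) and -0.46 (adjusted p = 0.0325). MUC2, the main mucin of goblet cells, went from 0.979, 0.634 and 0.941 to 3.44, 4.82 and 3.61 TPM in LoVo-labelled cells and stayed at or under 0.478 TPM in DLD-1 (interaction -1.26, adjusted p = 0.0483). FOXA1, SOX9 and MUC2 lost their calls without most single libraries, MUC2 without each of the 12. MUC2 and REG4, both of the secretory list, had interactions of opposite sign. That list had 1 positive and 2 negative calls among 22 tested, against 0.231% and 0.652% of all genes, with a median of 0.026. MUC2 reached 1 TPM in the treated LoVo-labelled libraries alone and passed the filter through them, which favoured a negative estimate.

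The remaining genes of the naming rule with a negative interaction were mostly low in untreated cells. CALML5, a calmodulin-like protein of epidermis, was at 0, 0 and 0.357 TPM in untreated LoVo-labelled libraries and at 5.54, 5.64 and 5.08 with alpelisib. DLD-1 libraries were at 0.149, 0 and 0 untreated and 0, 0.477 and 0.279 treated. A clear level was thus seen in treated LoVo-labelled cells alone (interaction -2.30, limma adjusted p = 0.00649). CALML5 reached 1 TPM in those libraries alone and passed the filter through them, which favoured a negative estimate. HES2, a transcriptional repressor of the Hairy and Enhancer of split family, went from 2.08, 2.49 and 1.78 to 10.5, 14.8 and 9.83 TPM in LoVo-labelled cells and from 2.28, 2.32 and 2.76 to 2.47, 3.51 and 2.73 in DLD-1 (-1.84, adjusted p = 0.00649). UPK1A, a tetraspanin of urothelial plaques, had 1.84, 2.57 and 1.36 TPM untreated and 9.49, 10.7 and 10.7 treated in LoVo-labelled cells (-1.72, adjusted p = 0.0152). Its DLD-1 libraries lay between 1.59 and 3.29 TPM with the groups overlapping. HAND1, a basic helix-loop-helix factor, rose from 1.49, 1.28 and 1.36 to 6.19, 7.38 and 5.81 TPM in LoVo-labelled cells and was listed at 0 in all 6 DLD-1 libraries (-1.64, adjusted p = 0.00958). C1QTNF9B, a secreted protein with a near-identical paralog, rose by 2.57 and 0.89 in the LoVo-labelled and DLD-1 cells (-1.68, adjusted p = 0.0213). PCAT7, a long noncoding RNA, rose by 1.53 in LoVo-labelled cells with no call in DLD-1 (-1.69, adjusted p = 0.0393).

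KALRN, a guanine nucleotide exchange factor, was the exception among them, in that the change lay in DLD-1. Its TPM was 5.66, 6.43 and 6.88 in untreated DLD-1 libraries and 0.776, 1.19 and 1.33 with alpelisib, a fall to 0.174 of the untreated mean. In LoVo-labelled cells it was 3.61, 4.18 and 2.12 untreated and 5.05, 2.86 and 2.48 treated, with overlapping groups (interaction -1.85, limma adjusted p = 0.0256). A further 4 genes that met the rule are uncertain because reads from near-identical copies or short genes can be split in counting. They were the mitochondrial transfer RNA gene MT-TL1 (-3.66, adjusted p = 0.0293), the pseudogenes DUX4L50 (-1.99, adjusted p = 0.0358) and SNRPCP16 (-1.64, adjusted p = 0.0449), and the histone gene H2AC17 (-1.68, adjusted p = 0.0252).

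The positive genes named by the rule included secreted factors. GDF15, a stress-induced cytokine, was at 1219, 1024 and 1229.7 TPM in untreated LoVo-labelled libraries and at 452, 586 and 519.8 with alpelisib. Those of DLD-1 were at 465, 413 and 423 untreated and 393, 377 and 381 treated. It fell to 0.449 of its mean in LoVo-labelled cells, with no call in DLD-1, although the treated DLD-1 libraries lay below the untreated ones (interaction 0.98 ± 0.14, SE, limma adjusted p = 0.00890). AREG, a ligand of the EGF receptor, was at 92.6, 97.5 and 92.6 TPM and then 43.6, 45.1 and 47.6 in LoVo-labelled cells, and at 232, 197 and 217 and then 203, 227 and 182 in DLD-1. Treated LoVo-labelled libraries had the lowest AREG of all while the DLD-1 groups overlapped (0.96 ± 0.12, SE, adjusted p = 0.00568). CXCL5, a neutrophil-attracting chemokine, fell to 0.344 of its mean in LoVo-labelled cells and 0.648 in DLD-1 (0.92, adjusted p = 0.0152). It was the 1 call among 9 chemokines tested, beside 0.883% of all genes called. MT2A, a metal-binding metallothionein of a family of similar genes, fell in LoVo-labelled cells (effect -0.72) and had 0.12 with no call in DLD-1 (0.84, adjusted p = 0.0101). PLA2G12A, a secreted phospholipase, had effects of -0.96 and 0.21 in the same order (1.17, adjusted p = 0.0318), and LSM6, a subunit of RNA-binding LSm rings, -0.98 and -0.039 (0.94, adjusted p = 0.0213).

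RAMP1 and FRMD4A were the 2 rule genes that rose in DLD-1 alone by call. RAMP1, a partner of the receptor for calcitonin gene-related peptide, was at 3.57, 3.83 and 2.80 TPM in untreated DLD-1 libraries and at 9.25, 10.6 and 10.5 with alpelisib. In LoVo-labelled cells it was at 0.643, 1.17 and 1.94 untreated and 1.12, 0.836 and 0.207 treated, with overlap (interaction 1.73, limma adjusted p = 0.0375). FRMD4A, a scaffold protein of cell polarity, was at 1.27, 1.21 and 1.51 TPM untreated and 4.61, 5.49 and 4.44 treated in DLD-1, and at 3.54, 5.02 and 3.16 untreated and 4.28, 5.24 and 3.44 treated in LoVo-labelled cells. It lies just inside the threshold (1.20, adjusted p = 0.0471), as MUC2 does, and UBE2C and HELLS lie just outside. The calls of PCAT7, RAMP1, PLA2G12A, SNRPCP16 and DUX4L50 were each lost without most single libraries, and that of FRMD4A without each of them. BHLHE40 lost its call without 10 of the libraries, KALRN, MT-TL1, H2AC17 and SOCS1 without 7, PIM3 and LSM6 without 5, ADM and C1QTNF9B without 4 and NR1D1 without 3. In all, 19 of the 44 called genes named here kept their call without each of the 12 libraries, and over the other 25 the adjusted p without 1 library reached at most 0.123.

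**Figure D4:**
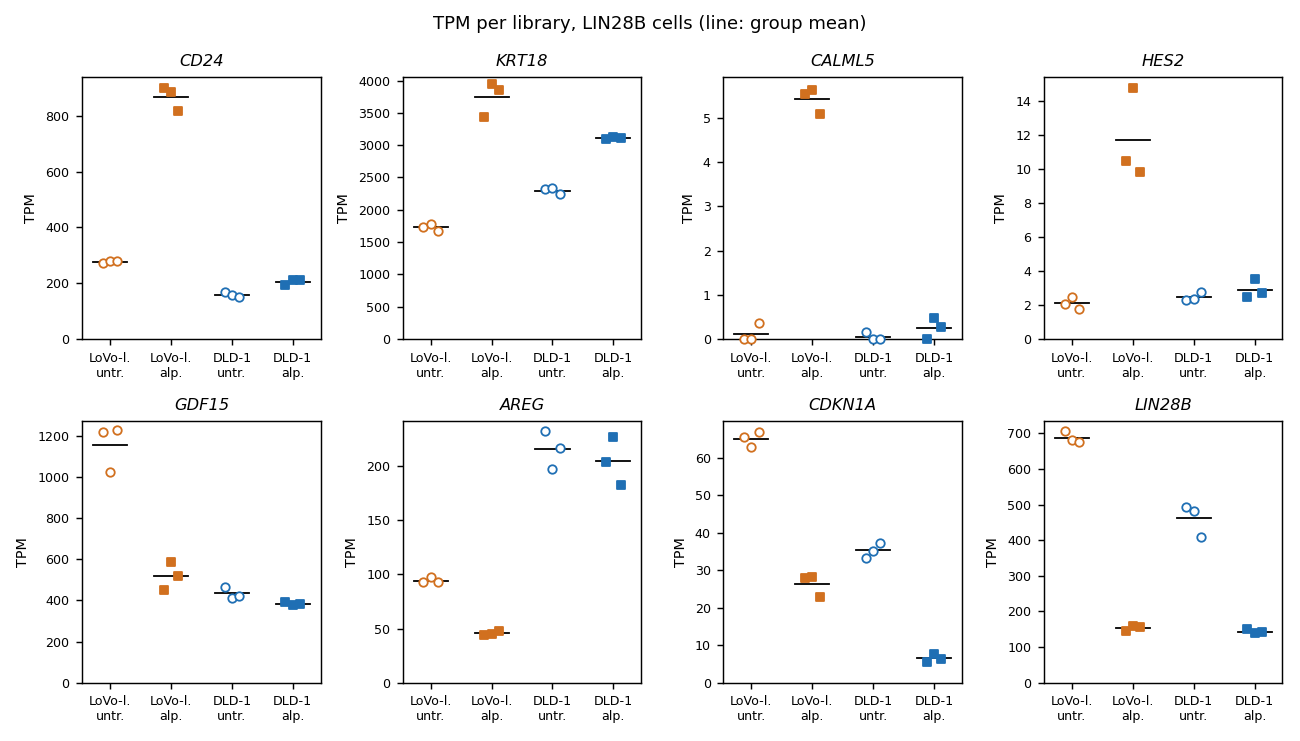
TPM in each of the 12 libraries of CD24, KRT18, CALML5, HES2, GDF15, AREG, CDKN1A and LIN28B, with untreated libraries as open circles, alpelisib libraries as filled squares and a line at the mean of each group of 3 (LoVo-l., LoVo-labelled). CD24, KRT18, CALML5 and HES2 rise most in LoVo-labelled cells, GDF15 and AREG fall there, CDKN1A falls further in DLD-1, and LIN28B falls in both lines.

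Genes of the drug's own pathway fell in part in both lines. Of 41 genes of PI3K, AKT and mTOR tested, 17 fell in each line, against 25.6% of all genes in DLD-1 and 27.8% in LoVo-labelled cells. Interactions were called for 0 of the 41, a count that says little about the list where 0.883% of all genes were called. At an unadjusted p under 0.05 there were 2 positive and 4 negative, against 5.95% and 8.04%. PIK3CA, the target of alpelisib, was at 15, 14.4 and 15.6 TPM and then 13.8, 11.5 and 11.2 in LoVo-labelled cells and at 12.6, 10.5 and 12 and then 9.92, 9.75 and 11.9 in DLD-1. Its change was called in neither line, although the LoVo-labelled groups did not overlap, and the 95% interval of the interaction was -0.21 to 0.50. PIK3CB, the beta catalytic subunit, fell in both lines (-0.62 in LoVo-labelled cells, -0.90 in DLD-1), as did PIK3R1, the main regulatory subunit (-0.90 and -0.99). Their interactions had 95% intervals of -0.71 to 0.14 and -0.53 to 0.34. The AKT1 interaction was -0.074 and the AKT2 one -0.22, while MTOR had 0.57 and EIF4EBP1, a target of mTOR that restrains translation, 0.41. None of these 4 was called. SESN3 and SESN2, FOXO and stress targets that restrain mTOR, had the lowest estimates named in the list, -0.80 (limma adjusted p = 0.0579) and -0.80 (adjusted p = 0.249).

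Among receptors and feedback genes SPRY4 and AREG were the called ones. They were the 1 negative and 1 positive call among 29 ERK feedback genes tested, against 0.652% and 0.231% of all genes. At an unadjusted p under 0.05 that list had 3 positive and 4 negative members, against 5.95% and 8.04% of all genes. IRS2, the insulin receptor substrate, rose in both lines, by 0.66 in LoVo-labelled cells and 0.62 in DLD-1 (interaction -0.036, 95% interval -0.51 to 0.44). INSR had 0.11 and ERBB3, a receptor of the EGF receptor family, -0.32, neither called, and ERBB3 rose by call in LoVo-labelled cells alone (0.52 against 0.20). Of 27 receptors and adaptors 0 were called, with 1 positive and 7 negative at an unadjusted p under 0.05, against 5.95% and 8.04% of all genes. SPRY4, a feedback inhibitor of the ERK pathway, rose from 5.90, 6.67 and 6.70 to 28.8, 27.9 and 26.0 TPM in LoVo-labelled cells and from 9.73, 9.98 and 9.69 to 22.7, 24.3 and 23.6 in DLD-1. It rose in both lines without overlap, 4.29-fold and 2.40-fold, and its interaction was -0.76 (limma adjusted p = 0.0152). MYC rose in LoVo-labelled cells (0.58) and had 0.35 with no call in DLD-1, and its interaction of -0.23 was not called (adjusted p = 0.683).

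LIN28B itself fell in both lines. It was at 706, 682 and 674 TPM in untreated LoVo-labelled libraries and 146, 160.3 and 155 with alpelisib. The DLD-1 libraries had 493, 483 and 408 untreated and 149.7, 139 and 141 treated. The treated libraries of the lines overlapped while the untreated ones were higher in LoVo-labelled cells, and the interaction of 0.48 was not called (limma adjusted p = 0.0614). It was called under 3 of 9 other settings, with median-of-ratios scaling (adjusted p = 0.0295), without mitochondrial genes in the total (0.0484) and with a filter of 5 TPM (0.0499). TPM cannot tell the introduced LIN28B message from the cells' own.

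Hypoxia and stress genes fell in both lines, with single exceptions in the interaction. Of 22 hypoxia-response genes 21 fell in each line, against 25.6% of all genes in DLD-1 and 27.8% in LoVo-labelled cells. Among them 2 positive and 1 negative interactions were called, against 0.231% and 0.652% of all genes. ANKRD37, an ankyrin repeat gene induced by hypoxia, went from 494, 466 and 502 to 55.2, 63.5 and 52.8 TPM in LoVo-labelled cells and from 97.4, 102 and 133 to 24.1, 26.5 and 25.5 in DLD-1. It fell to 0.117 of its mean in LoVo-labelled cells and 0.229 in DLD-1 (1.00, limma adjusted p = 0.0135). ADM, the vasodilator adrenomedullin, fell with effects of -1.64 and -0.89 in the same order (0.75, adjusted p = 0.0207). BHLHE40, a repressor of the circadian clock, fell more in DLD-1, at -2.70 against -1.87 (-0.83, adjusted p = 0.0407). NR1D1, the clock repressor REV-ERB alpha, fell more in LoVo-labelled cells, at -2.32 against -1.50 (0.82, adjusted p = 0.0177), so that 2 clock repressors had interactions of opposite sign. DDIT4, an inhibitor of mTOR induced by stress, and LGALS1, a secreted lectin, fell in both lines without a called interaction. DDIT4 had effects of -2.83 in LoVo-labelled cells and -3.58 in DLD-1 (interaction -0.75, limma adjusted p = 0.145, not called). LGALS1 had -2.32 and -2.28 (interaction 0.037, 95% interval -0.34 to 0.41).

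The 3 lists that follow are read beside the shares of all genes, of which 25.6% fell in DLD-1, 27.8% fell in LoVo-labelled cells, 0.883% had a called interaction, and 5.95% and 8.04% were positive and negative at an unadjusted p under 0.05. Of 27 cholesterol synthesis genes 24 fell in each line, and 0 interactions were called, with 8 positive and 0 negative at an unadjusted p under 0.05. Of 34 ATF4 and amino acid response genes 30 fell in DLD-1 and 29 in LoVo-labelled cells, and GDF15 was the 1 call (1 positive and 8 negative at an unadjusted p under 0.05). Glycolysis fell in 23 and 22 of 24 genes with 0 interactions called (2 positive and 3 negative at an unadjusted p under 0.05). The median interactions of these 3 lists lay between -0.16 and 0.16.

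**Figure D5:**
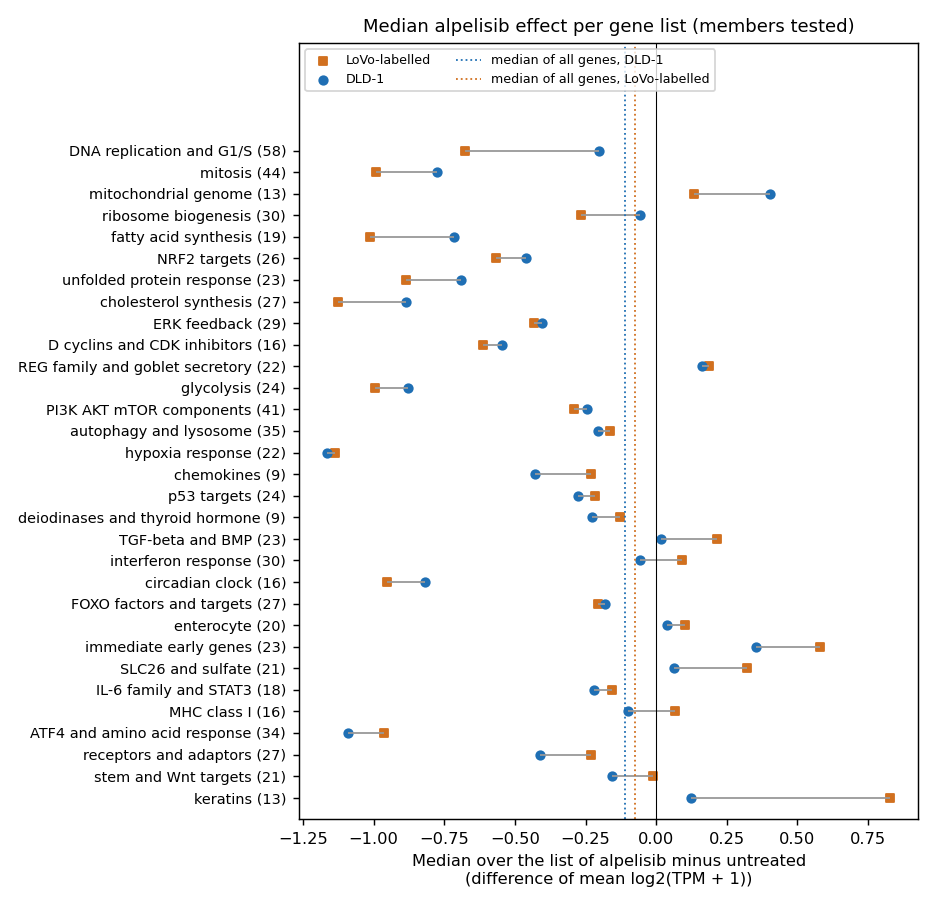
Median alpelisib effect over the tested members of each gene list, as the difference of mean log2(TPM + 1), in LoVo-labelled cells (orange squares) and DLD-1 (blue circles), with the number of members in brackets and the medians of all genes as dotted lines. The DNA replication list has its medians at -0.68 and -0.20 and the keratin list at 0.83 and 0.12, the widest separations drawn.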

How the data were processed

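RNA-seq values were deposited as TPM for 18 libraries, per the file headers, and 12 were used. The submitters' processing notes name hg38, STAR 2.7.10, Picard, HTSeq and DESeq2 without role or order. The annotation and gene lengths behind the TPM are not given in the sources used here. Since TPM keeps no depth, no count model was fitted. The values are shares, so abundant transcripts that change move the rest. Symbols came from the reference gene name table, and positions from a GRCh38 gene annotation.

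The test was limma 3.58.1 (R 4.3.3, eBayes with trend) applied to log2(TPM + 1) in 4 groups of 3 libraries, 8 residual and 4.18 prior degrees of freedom. P-values were two-sided and Benjamini-Hochberg adjusted over 17322 genes, with calls under 0.05. Effects understate changes of low genes, and folds are ratios of mean TPM. On simulated data with 17322 genes, 81.4% of interactions of size 1 and 20% of size 0.5 were called. The simulated interactions were placed only in genes with a mean log2(TPM + 1) above 3 in all 4 groups, with normal noise. The shares that would be called among lower genes are therefore not known.

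The genes and lists were chosen with earlier results of these data known. Named genes were the 15 largest called estimates in each direction with a group mean of 2 TPM, 9 drug differences per line not overlapping (7.53% of genes) and no clone name, the 5 marker genes and 14 fixed genes, and up to 6 members of each list described. Alternatives were other pseudocounts, filters and scalings, all 18 libraries, no trend, a replicate block and leaving out each library.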

Additional observations from a re-analysis of the deposited data

Results flagged for a closer look

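The 44 called genes named above had an alpelisib effect that differed between the lines by the test of the interaction itself (limma, adjusted p under 0.05). All values here are the DLD-1 effect minus the LoVo-labelled effect on the log2(TPM + 1) scale, and no explanation was tested for any of them. The named genes were selected on this test, so their number says nothing beyond the 0.883% called over all genes.

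The negative differences of 1.5 or more in size were -3.66 for MT-TL1, -2.30 for CALML5, -1.99 for DUX4L50, -1.96 for SLC26A2, -1.95 for DIO3, -1.85 for KALRN, -1.84 for HES2, -1.72 for UPK1A and -1.69 for PCAT7. In the same range were -1.68 for C1QTNF9B, -1.68 for DIO3OS, -1.68 for H2AC17, -1.65 for SOCS1, -1.64 for HAND1, -1.64 for SNRPCP16 and -1.59 for KRT4. The smaller negative differences were -1.28 for CD24, -1.26 for MUC2, -1.22 for FOXQ1, -1.0 for CDKN1A, -0.84 for KRT80, -0.83 for BHLHE40, -0.76 for SPRY4, -0.68 for KRT18, -0.56 for FOXA1 and -0.46 for SOX9.

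The positive differences were 1.96 for REG4, 1.73 for RAMP1, 1.21 for LIF, 1.20 for FRMD4A, 1.17 for PLA2G12A, 1.01 for EME1, 1.00 for ANKRD37, 0.98 for GDF15 and 0.96 for AREG. They were 0.96 for FANCA, 0.94 for LSM6, 0.92 for CXCL5, 0.84 for MT2A, 0.82 for WDHD1, 0.82 for NR1D1, 0.75 for ADM, 0.72 for PCNA and 0.64 for PIM3. CDKN1A and BHLHE40 fell further in DLD-1 than in LoVo-labelled cells, and KALRN fell in DLD-1 alone by call. With groups of 3 libraries, no search for single outlying libraries was made.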

How the results depend on the processing

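The interaction was recomputed under 9 other settings and without each of the 12 libraries. The 153 genes kept the sign of their estimate in every setting in which they were tested (141 of 141 with a filter of 5 TPM). The filters, the fit of all 18 libraries, the fit without a trend and the replicate block leave the estimate itself unchanged. Only the pseudocounts, the scalings and the left-out libraries could therefore have changed a sign. Against 153 calls (40 positive, 113 negative), no filter gave 86 (20 and 66), median-of-ratios scaling 248 (114 positive), and a fit without a mean-variance trend 96 (18 positive). A pseudocount of 5 gave 65 positive calls and totals without mitochondrial genes 78. Leaving out 1 library gave 65 to 246 calls, with 15 to 68 positive and 49 to 178 negative. The counts were 72, 91 and 85 without LoVo-labelled untreated replicates 1 to 3, 139, 90 and 246 without those with alpelisib, 67, 89 and 84 without DLD-1 untreated replicates, and 70, 65 and 121 without those with alpelisib. The counts for alpelisib within each line stayed within 1.5 times in every setting. The cause of these shifts was not tested.

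Of the 44 called genes named, 44 kept the call under both rescalings, 40 with a pseudocount of 5, 35 with one of 0.1, 37 with all 18 libraries in the fit, 29 without the trend, 24 with no filter and 37 of 38 with a filter of 5 TPM. Without LoVo-labelled untreated replicates 1, 2 and 3, 21, 18 and 19 of them lost the call. Without alpelisib replicates 1, 2 and 3 of that line the losses were 12, 15 and 4. For DLD-1 they were 19, 18 and 17 without untreated replicates and 22, 22 and 12 without alpelisib replicates, in order. Without single libraries the estimates of 4 uncalled genes changed sign. AKT1 ranged from -0.19 to 0.0115, IRS2 from -0.139 to 0.0805 (also 0.0622 and 0.0206), INSR from -0.131 to 0.254, and LGALS1 from -0.109 to 0.173 (below 0 without each of 3 libraries, -0.0298 in 1 of them and nearest to 0 without DLD-1 untreated replicate 1).

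With the replicate number as a block within each line, 6 genes were called (1 positive, 5 negative), and 5 of the 44 kept the call. The labels do not say whether the numbers pair the samples. Deviations of same-numbered libraries correlated at 0.023, -0.0885 and -0.1629 in LoVo-labelled cells and 0.1309, 0.0111 and 0.023 in DLD-1. Not every library correlated best with its own number, but with 3 libraries a group these values cannot decide whether the samples were paired. TPM keeps no depth, so low genes carry an unknown counting error.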
